A study of Arabidopsis thaliana with 6 samples.

Results

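The 10 genes described here encode transcription factors that regulate secondary cell walls, such as those of xylem fibres, in *Arabidopsis thaliana*. They are the NAC factors *NST1*, *NST2* and *NST3*, the MYB factors *MYB46*, *MYB83*, *MYB58*, *MYB63*, *MYB85* and *MYB103*, and the homeodomain factor *KNAT7*. They were taken as a group by their locus codes. The rule set no threshold on measured values, but the group was proposed with earlier results of these data known. All 10 were found among the 33316 genes of the deposited tables. Messenger RNA was sequenced from the second internode of inflorescence stems of plants labelled as carrying 35S::Myc-GR-bdl. The labels' growth protocol names wild type (Col-0) plants instead, and the genotype was taken from titles and source names. In this transgene the 35S promoter, which is active in most cells, drives a stabilised form of the AUX/IAA protein BODENLOS (BDL), a repressor of AUXIN RESPONSE FACTORs, fused to the glucocorticoid receptor. The fusion enters the nucleus only when dexamethasone (Dex) is present. Plants of 15 to 20 cm were dipped in a mock solution (Mock, 3 libraries) or in 15 µM Dex (DEX, 3 libraries). They were then watered with Dex or mock solution and harvested after 3 h. Both groups carried the transgene, and no library of plants without it was analysed here, so that an effect of Dex itself cannot be told apart from an effect of the fusion protein. The paper's general methods give pools of 3 plants per replicate and single-copy transgenic lines, without naming these libraries. Internodes were not separated into tissues.

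Fibres and vessels of the xylem deposit a thick wall of cellulose, xylan and lignin inside the primary wall. NAC factors stand at the top of this programme: *NST1* and *NST3* (also called *SND1*) act redundantly in stem fibres, *NST1* and *NST2* in the anther wall, and the related VND factors in vessels. They activate *MYB46* and *MYB83*, which in turn activate further MYB genes and the genes of wall-building enzymes. *MYB58*, *MYB63* and *MYB85* mainly promote lignin synthesis, *MYB103* is needed for syringyl lignin, and *KNAT7* modulates wall deposition together with BELL and OVATE partners. The comparison of DEX with Mock asks how this hierarchy stood shortly after a treatment meant to block auxin signalling.

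The libraries held 30601253 to 37812400 total gene reads. The share of reads on the 4 ribosomal RNA genes was 0.195% to 0.584% in Mock and 0.126% to 0.167% in DEX, and its part in the results was not tested. *BDL*, read together with its transgene, averaged 1502 ± 473 CPM in the Mock libraries and 1461 ± 263 CPM in the DEX libraries (± SD, n = 3 per group; CPM, gene reads scaled to a common depth with TMM factors). The secondary wall cellulose synthase genes *CESA4*, *CESA7* and *CESA8* were read at 849 to 1683 CPM over the 6 libraries, while the floral organ identity genes *AP3*, *PI* and *AG* summed to at most 0.567 CPM in any library. Among markers of other stem tissues, *WOX4* of the cambium fell (log2 fold change -1.89 ± 0.17, ± SE, edgeR adjusted p = 0.000493), and so did the vessel protease gene *XCP2* (-0.60 ± 0.11, edgeR adjusted p = 0.0131, and 0.0626 without Mock 2 and 0.0541 without DEX 2). The 2 vessel markers *XCP1* and *XCP2* summed to 343 to 424 CPM in Mock and 252 to 286 CPM in DEX. *XCP1* itself overlapped between groups and was not called (edgeR adjusted p = 0.173). The 2 cambium markers *PXY* and *WOX4* summed to 170 to 215 CPM in Mock and 86.4 to 150.4 CPM in DEX. Most of the cambium sum was *PXY*, which was not called (edgeR adjusted p = 0.189). The phloem markers *SUC2*, *SEOR1* and *APL* summed to 342 to 402 CPM in Mock and 278 to 334 CPM in DEX, and none was called. *SUC2* made up most of this sum, and *APL* lay the other way, at 12.3 to 13.0 CPM in Mock and 15.7 to 20.0 CPM in DEX without overlap (log2 fold change 0.44 ± 0.12, edgeR adjusted p = 0.0515). None of the epidermal markers *ATML1* and *FDH* or of the green tissue markers *RBCS1A* and *CAB2* was called either, with summed levels that overlapped between groups. The part of these marker shifts in the results below was not tested, and in RNA from whole internodes fewer cells of a type cannot be told apart from less RNA per cell. For *WOX4*, the paper reports a weaker promoter reporter in cambium cells after longer Dex treatment, with the fusion expressed from the *PXY* promoter. A reporter of *PXY* did not respond there. *WOX4* is thus also a gene that responds to the fusion, besides being a marker.

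After Dex, *NST1* rose 1.60-fold while *NST3* fell 1.75-fold and the lignin regulator *MYB85* fell 1.89-fold. The other 7 regulators were not called. A gene was called when its edgeR adjusted p over the 19598 genes tested was below 0.05. Thus 3 of 10 regulators were called, against 11.9% of all genes tested; 1 rose (6.38% of all genes) and 2 fell (5.5% of all genes). In 5 of the 10 the CPM values of both groups did not overlap, against 28.3% of all genes. DEX lay above Mock in 2 (13.9% of all genes) and below it in 3 (14.3% of all genes). The median log2 fold change of the 10 genes was 0.01, beside -0.01 over all genes tested. With DESeq2 in place of edgeR, *NST2* and *KNAT7* were called as well, which made 5 of 10, against 15.2% of all genes called with that tool. With 10 genes these shares are a description only.

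**Figure D1:**
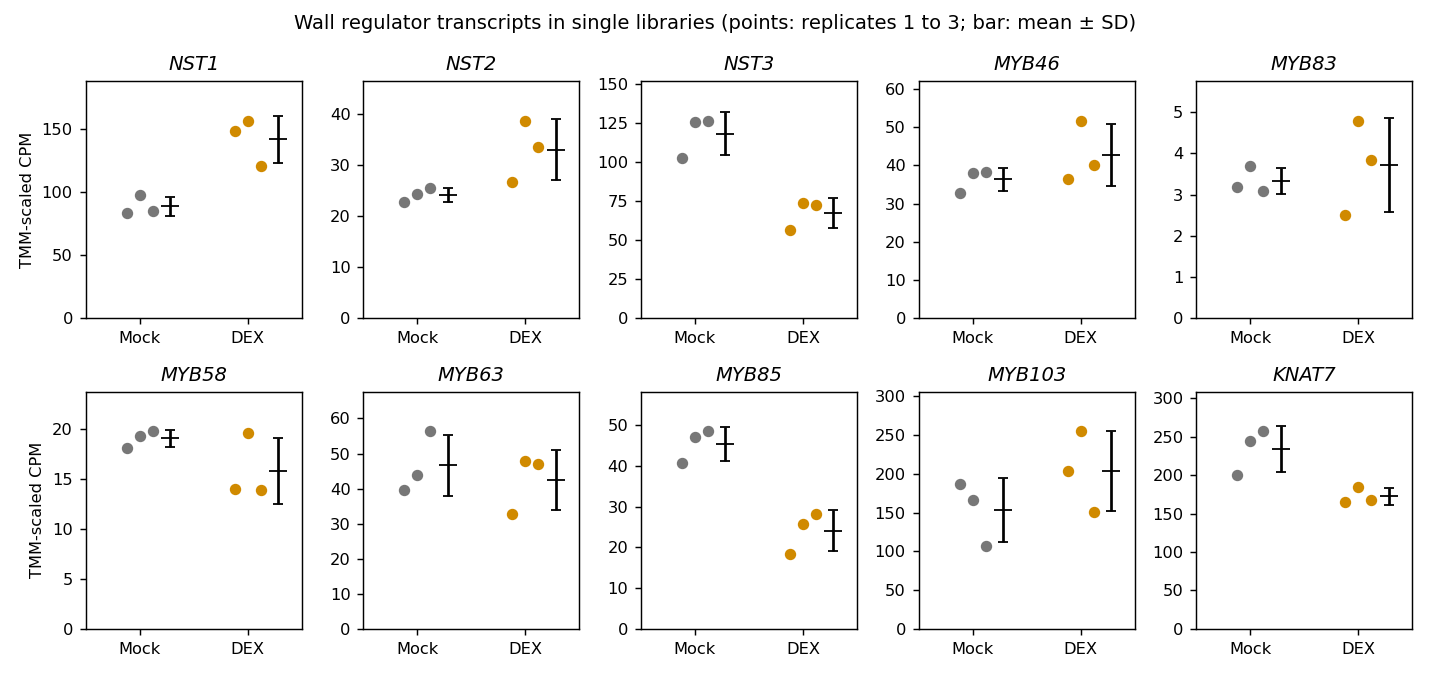
TMM-scaled CPM (vertical axes, each from 0) of the 10 regulators in the 3 Mock (grey) and 3 DEX (orange) libraries, with mean ± SD beside them. *NST1* lay above all Mock values in every DEX library, *NST3* and *MYB85* lay below them, and in 5 of the other 7 genes the groups overlapped.

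*NST1* rose and *NST3* fell, and *NST2* was not called, although the 3 genes are close relatives. Over aligned coding bases, *NST1* and *NST2* were 78.7% identical, and *NST3* shared 66.3% with *NST1* and 66.2% with *NST2*. The longest identical run between any pair of them was 28 bases, shorter than a read, and all of their reads were unique to 1 place in the genome. *NST1* (AT2G46770) lies on chromosome 2 at 19220725 to 19222916, *NST2* (AT3G61910) on chromosome 3 at 22929006 to 22930456 and *NST3* (AT1G32770) on chromosome 1 at 11865229 to 11867154, all on the minus strand in TAIR10.1. The annotation gives *NST1* and *NST3* 3 exons and *NST2* 2 exons, and no other annotated gene overlaps them. The 300 bases upstream of their annotated starts are shown because the genes diverged after Dex. They are written 5′ to 3′ on the strand of the gene, with capitals at the auxin response elements TGTCTC and TGTCGG on either strand, so that GAGACA marks a TGTCTC on the other strand. The coordinates are chr2:19222917-19223216 for *NST1*, chr3:22930457-22930756 for *NST2* and chr1:11867155-11867454 for *NST3* (RefSeq, TAIR10.1, minus strand).
NST1: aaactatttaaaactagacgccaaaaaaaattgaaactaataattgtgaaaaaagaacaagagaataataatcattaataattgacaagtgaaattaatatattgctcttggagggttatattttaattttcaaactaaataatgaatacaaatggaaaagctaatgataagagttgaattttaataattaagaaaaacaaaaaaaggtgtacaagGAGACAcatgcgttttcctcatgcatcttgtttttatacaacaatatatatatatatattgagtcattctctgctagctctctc
NST2: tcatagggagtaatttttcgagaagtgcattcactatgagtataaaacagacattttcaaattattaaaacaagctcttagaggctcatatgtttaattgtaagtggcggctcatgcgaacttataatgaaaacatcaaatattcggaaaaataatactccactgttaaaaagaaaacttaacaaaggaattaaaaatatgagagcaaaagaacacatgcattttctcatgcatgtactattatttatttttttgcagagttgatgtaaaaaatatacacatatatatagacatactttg
NST3: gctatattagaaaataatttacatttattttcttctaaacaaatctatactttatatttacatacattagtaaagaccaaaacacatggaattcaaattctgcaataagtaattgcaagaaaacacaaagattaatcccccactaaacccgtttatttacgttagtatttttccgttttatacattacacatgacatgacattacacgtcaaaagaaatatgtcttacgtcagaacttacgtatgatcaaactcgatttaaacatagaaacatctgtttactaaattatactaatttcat

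*NST1* was the only one of the 3 with such an element in this window, a TGTCTC on the opposite strand at 84 to 79 bases before the start. Within 1000 bases *NST2* held a TGTCTC at 637 to 632 bases and *NST1* a TGTCGG at 670 to 665 bases, both on the opposite strand. The best local alignment of the *NST1* and *NST2* windows was a block of 23 columns with 21 identical bases, acacatgcgttttcctcatgcat in *NST1* and acacatgcattttctcatgcat in *NST2*. It began 81 bases before the start of *NST1*, where it overlapped the TGTCTC match, and 88 bases before the start of *NST2*. The best alignments of *NST3* were longer, with 33 of 46 columns identical to *NST1* (71.7%) and 26 of 34 identical to *NST2* (76.5%). How often windows of other genes share such blocks was not tested. A match describes the letters only and does not show that a factor bound there.

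*NST1*, a fibre wall switch, was read at 83.1, 97.3 and 84.8 CPM in Mock libraries 1, 2 and 3 and at 148, 156 and 120.4 CPM in DEX libraries 1, 2 and 3. Every DEX library was above every Mock library. Its log2 fold change was 0.68 ± 0.12 (± SE, edgeR adjusted p = 0.0112), and the call held in all 16 alternative analyses (adjusted p 1.96e-05 to 0.0429). *NST3*, its partner in fibres, was read at 102, 125 and 126 CPM in Mock and at 56.2, 73.4 and 72.2 CPM in DEX. Every DEX library was below every Mock library, its log2 fold change was -0.81 ± 0.14 (edgeR adjusted p = 0.00817), and it was called in all 16 alternatives (adjusted p 3.61e-06 to 0.0418). *NST2*, best known from the anther wall, was read at 22.8, 24.4 and 25.5 CPM in Mock and at 26.8, 38.8 and 33.6 CPM in DEX. The groups did not overlap, but the lowest DEX value came close to the highest Mock value, and the log2 fold change of 0.45 ± 0.14 was not called (edgeR adjusted p = 0.0873, 95% interval 0.12 to 0.77). It passed without DEX 1 (adjusted p = 0.0211), with DESeq2 (adjusted p = 0.0379) and with the replicate number as a block (edgeR adjusted p = 0.0196).

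Spliced reads, a subset of the same reads, changed in the same directions. Reads across exon junctions of *NST1* numbered 281, 392 and 365 in Mock and 606, 588 and 479 in DEX, 1.55-fold more relative to depth. Those of *NST3* numbered 259, 373 and 402 in Mock and 201, 227 and 219 in DEX, 1.65-fold fewer relative to depth. Intron reads were too few for a comparison, with 28 and 34 over the Mock and DEX groups for *NST1* and 30 and 17 for *NST3*.

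Because RPKM values (reads scaled by exon length and by total gene reads) are set per length, the NST genes could be compared within a library, where the scaling between libraries cancels. The ratio of *NST1* to *NST3* was 0.635, 0.608 and 0.523 in Mock libraries 1, 2 and 3 and 2.05, 1.66 and 1.30 in DEX libraries 1, 2 and 3. By RPKM, *NST3* was thus the more abundant of the fibre pair in all 3 Mock libraries and *NST1* in all 3 DEX libraries. The lengths used differ in kind. *NST3* was counted over 1077 bases, equal to its coding length, and *NST1* over 1382 bases, beside a coding length of 1098. The effect of this on levels compared between genes was not tested, whereas it cancels in the change of the ratio from Mock to DEX. *NST1* made up 33.2% ± 2.12 of the summed NST RPKM in Mock and 53.4% ± 5.57 in DEX, *NST3* 56.5% ± 2.11 and 32.5% ± 4.07, and *NST2* 10.3% ± 0.552 and 14% ± 1.70 (mean ± SD, n = 3 each). The sum itself was 175, 211 and 204 RPKM in Mock and 172, 211 and 176 RPKM in DEX. These sums overlapped fully between groups, at 197 ± 18.7 RPKM in Mock and 186 ± 21.4 RPKM in DEX. Unlike the ratios, the sums depend on the scaling between libraries, and RPKM takes no TMM factors. Those factors were 1.017 to 1.028 in Mock and 0.958 to 0.997 in DEX, so that RPKM sets DEX lower beside Mock than CPM does.

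**Figure D2:**
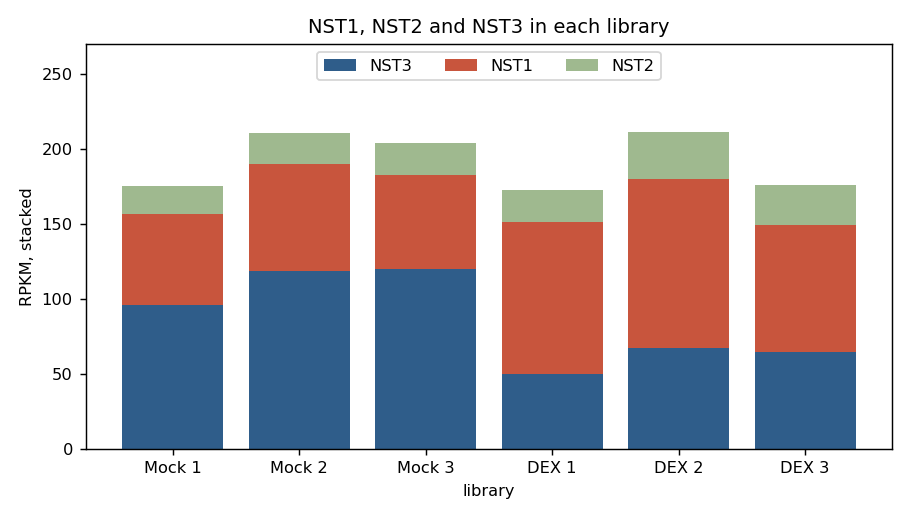
RPKM (vertical axis) of *NST3*, *NST1* and *NST2*, stacked for each of the 6 libraries. The full bars stand at 172 to 211 RPKM in both groups, while *NST3* is the largest part in the Mock libraries and *NST1* in the DEX libraries.

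*MYB46* and *MYB83*, the direct NAC targets that relay the signal to the rest of the network, were not called. *MYB46* (AT5G12870, chromosome 5, 4062666 to 4065075, minus strand, 2 exons) was read at 32.8, 38 and 38.3 CPM in Mock and at 36.4, 51.8 and 40.1 CPM in DEX. The groups overlapped, and the log2 fold change of 0.23 ± 0.14 had a 95% interval of -0.10 to 0.57 (edgeR adjusted p = 0.399). *MYB83* (AT3G08500, chromosome 3, 2576444 to 2578276, minus strand, 2 exons) was the least abundant regulator, with 3.19, 3.68 and 3.09 CPM in Mock and 2.51, 4.79 and 3.84 CPM in DEX. The DEX values lay on either side of the Mock values (log2 fold change 0.16 ± 0.24, 95% interval -0.41 to 0.73, edgeR adjusted p = 0.777), and without DEX 2 the value became -0.062. Coding bases of the pair were 67.9% identical, and all reads of both genes were unique. Per exon length *MYB46* exceeded *MYB83* by 12.2 to 14.9 times in the Mock libraries and by 12.5 to 17.3 times in the DEX libraries. The 95% intervals run from -0.10 to 0.57 and from -0.41 to 0.73. Rises or falls of either gene within its interval cannot be told from no change with 3 libraries a group.

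Of the regulators of lignin synthesis, *MYB85* (AT4G22680, chromosome 4, 11922340 to 11924230, minus strand, 2 exons) fell, whereas *MYB58* and *MYB63* were not called. *MYB85* was read at 40.7, 47.2 and 48.5 CPM in Mock and at 18.4, 25.8 and 28.2 CPM in DEX. The highest DEX library was well below the lowest Mock library, and the log2 fold change of -0.92 ± 0.16 was the largest fall among the 10 genes (edgeR adjusted p = 0.0108). The call held in 15 of 16 alternatives (adjusted p 1.14e-05 to 0.0501), and the exception was the fit without Mock 2, with an adjusted p of 0.0501 and a log2 fold change of -0.89. Junction reads of *MYB85* numbered 55, 81 and 98 in Mock and 26, 43 and 50 in DEX, 2.02-fold fewer relative to depth. *MYB63* (AT1G79180, chromosome 1, 29786257 to 29787820, plus strand, 2 or 3 exons) was read at 39.7, 43.9 and 56.4 CPM in Mock and 32.7, 47.8 and 47.0 CPM in DEX. The groups overlapped (log2 fold change -0.14 ± 0.18, 95% interval -0.56 to 0.29, edgeR adjusted p = 0.744). Within a library, *MYB63* stood at 1.17 to 1.46 times the RPKM of *MYB85* in Mock and at 2.11 to 2.36 times in DEX.

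*MYB58* (AT1G16490, chromosome 1, 5629655 to 5631088, minus strand, up to 3 exons) is the close relative of *MYB63*, with 82.3% identical coding bases. It was read at 18.1, 19.3 and 19.7 CPM in Mock and 13.9, 19.6 and 13.8 CPM in DEX. The libraries DEX 1 and DEX 3 were below all Mock libraries and DEX 2 was among them, and the log2 fold change of -0.27 ± 0.15 was not called (edgeR adjusted p = 0.34, 95% interval -0.61 to 0.07). Without DEX 2 it was -0.45 with an adjusted p of 0.0405. Only 35.9% of the reads of *MYB58* were unique, whereas all reads of *MYB63* and the other 8 genes were unique. With unique reads alone its log2 fold change was -0.25 (edgeR adjusted p = 0.518). The antisense RNA gene AT1G16489 overlaps *MYB58* on the plus strand and held 186 reads in all 6 libraries, against 3603 for *MYB58*. The sources used here do not say whether the counting used strand, and the level of *MYB58* is therefore uncertain.

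*MYB103* and *KNAT7* were among the most abundant regulators. *MYB103* (AT1G63910, chromosome 1, 23719783 to 23721774, minus strand, 3 exons), which is needed for syringyl lignin, was read at 187, 166 and 107 CPM in Mock and at 204, 255 and 151 CPM in DEX. Library 3 was the lowest of each group, the groups overlapped, and the log2 fold change of 0.41 ± 0.25 was not called (edgeR adjusted p = 0.406, 95% interval -0.18 to 0.99). With the replicate number as a block *MYB103* was called (edgeR adjusted p = 0.035). *KNAT7* (AT1G62990, chromosome 1, 23337167 to 23340692, plus strand, 5 exons), a class II KNOX factor, was read at 201, 244 and 257 CPM in Mock and 165, 185 and 167 CPM in DEX. Every DEX library was below every Mock library, but the log2 fold change of -0.44 ± 0.12 missed the threshold narrowly (edgeR adjusted p = 0.0515, 95% interval -0.71 to -0.17). It passed with library totals (adjusted p = 0.0373), with upper-quartile factors (0.0378), with DESeq2 (0.00791) and without Mock 1 (0.0249). It also passed with the replicate number as a block (edgeR adjusted p = 0.0137). The range over 16 alternatives was 0.00791 to 0.19.

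The upstream windows of *MYB85* and *MYB103* are shown because *MYB85* had the largest fall and *MYB103* the most auxin response elements of the 10 genes. They span chr4:11924231-11924530 and chr1:23721775-23722074 (RefSeq, TAIR10.1, minus strand for both), with capitals as above.
MYB85: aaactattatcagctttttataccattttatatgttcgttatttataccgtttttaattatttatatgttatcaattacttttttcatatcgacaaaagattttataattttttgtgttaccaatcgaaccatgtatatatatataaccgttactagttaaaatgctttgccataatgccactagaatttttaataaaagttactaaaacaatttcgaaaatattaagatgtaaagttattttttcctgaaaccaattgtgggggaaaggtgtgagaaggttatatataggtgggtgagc
MYB103: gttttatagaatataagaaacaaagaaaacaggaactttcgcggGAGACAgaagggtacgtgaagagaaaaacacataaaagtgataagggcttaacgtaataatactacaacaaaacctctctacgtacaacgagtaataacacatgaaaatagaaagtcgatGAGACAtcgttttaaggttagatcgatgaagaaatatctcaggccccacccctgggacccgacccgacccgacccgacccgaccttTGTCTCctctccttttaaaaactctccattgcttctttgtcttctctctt

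In *MYB103* a TGTCTC lay at 50 to 45 bases before the start, and 2 more on the opposite strand lay at 136 to 131 and 256 to 251 bases before it. Neither element was found within 1000 bases of *MYB85*, *KNAT7*, *NST3* or *MYB58*, of which *KNAT7* and *MYB58* were not called. On either strand of the 300-base windows TGTCTC was found in 3 of 10 regulators (*NST1*, *MYB83* and *MYB103*), against 13.0% of 27443 protein-coding genes, and TGTCGG in *MYB46* alone, against 4.91%. Within 1000 bases TGTCTC was found in 5 of 10 (39.6% of all) and TGTCGG in 2 of 10 (14.6% of all). The NAC-binding element of secondary walls (SNBE), also searched on both strands, was present within 1000 bases in 9 of 10, beside 87.3% of all genes. The genes with TGTCTC within 300 bases were *NST1*, which rose, and *MYB83* and *MYB103*, which were not called.

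Ordered by RPKM in Mock, the regulators ran from *KNAT7* at 180 ± 23.9 and *NST3* at 111 ± 13.5 through *MYB103* at 107 ± 28.8, *NST1* at 65.2 ± 5.94, *MYB63* at 42.8 ± 8.18, *MYB85* at 33.2 ± 3.17, *MYB46* at 32.5 ± 2.74, *NST2* at 20.2 ± 1.25 and *MYB58* at 16.4 ± 0.856 to *MYB83* at 2.48 ± 0.244 (mean ± SD, n = 3). The neighbours *NST3* and *MYB103* overlapped, as did *MYB85* and *MYB46*. All other neighbours were separate in the 3 Mock libraries, although *MYB63* (lowest value 36.1) and *MYB85* (highest value 35.5) nearly met. In DEX the order by mean began with *MYB103* at 136 ± 36.8, followed by *KNAT7* at 127 ± 10.2, *NST1* at 99.5 ± 14.1 and *NST3* at 60.6 ± 9.60. *MYB85* moved from place 6 to place 8, at 16.6 ± 3.70.

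**Figure D3:**
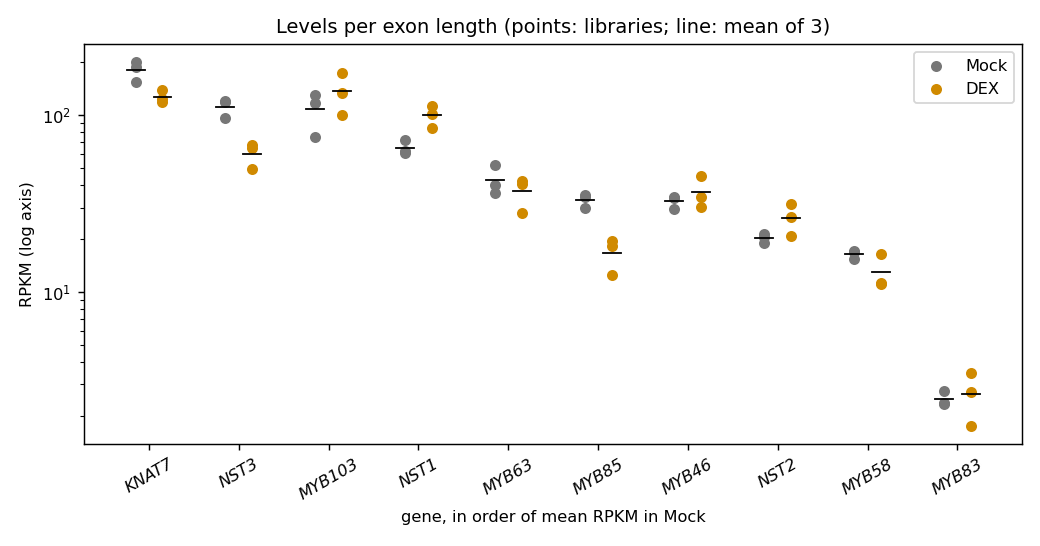
RPKM (log axis) of the regulators in single Mock (grey) and DEX (orange) libraries, with the mean of 3 as a line, in order of the Mock mean. From *KNAT7* at 180 to *MYB83* at 2.48 the Mock means span the axis, and the order of *NST1* relative to *NST3* reverses between the groups.

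The same libraries were high or low for most of the regulators. DEX 2 held the highest value of the DEX group for 9 of the 10 genes, all but *MYB85*, and Mock 1 the lowest value of the Mock group for 8 of 10. Over all 19598 genes tested these shares were 27.6% and 39.0%. Mock 3 was the highest Mock library and DEX 1 the lowest DEX library for 7 of 10 genes each, beside 35.0% and 31.9% of all genes. Of 35 wall enzyme genes, DEX 2 was the highest DEX library for 26, but Mock 1 was the lowest Mock library for 14 (40.0%), close to its share over all genes. The part of these library differences in the results was not tested beyond leaving out each library.

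**Figure D4:**
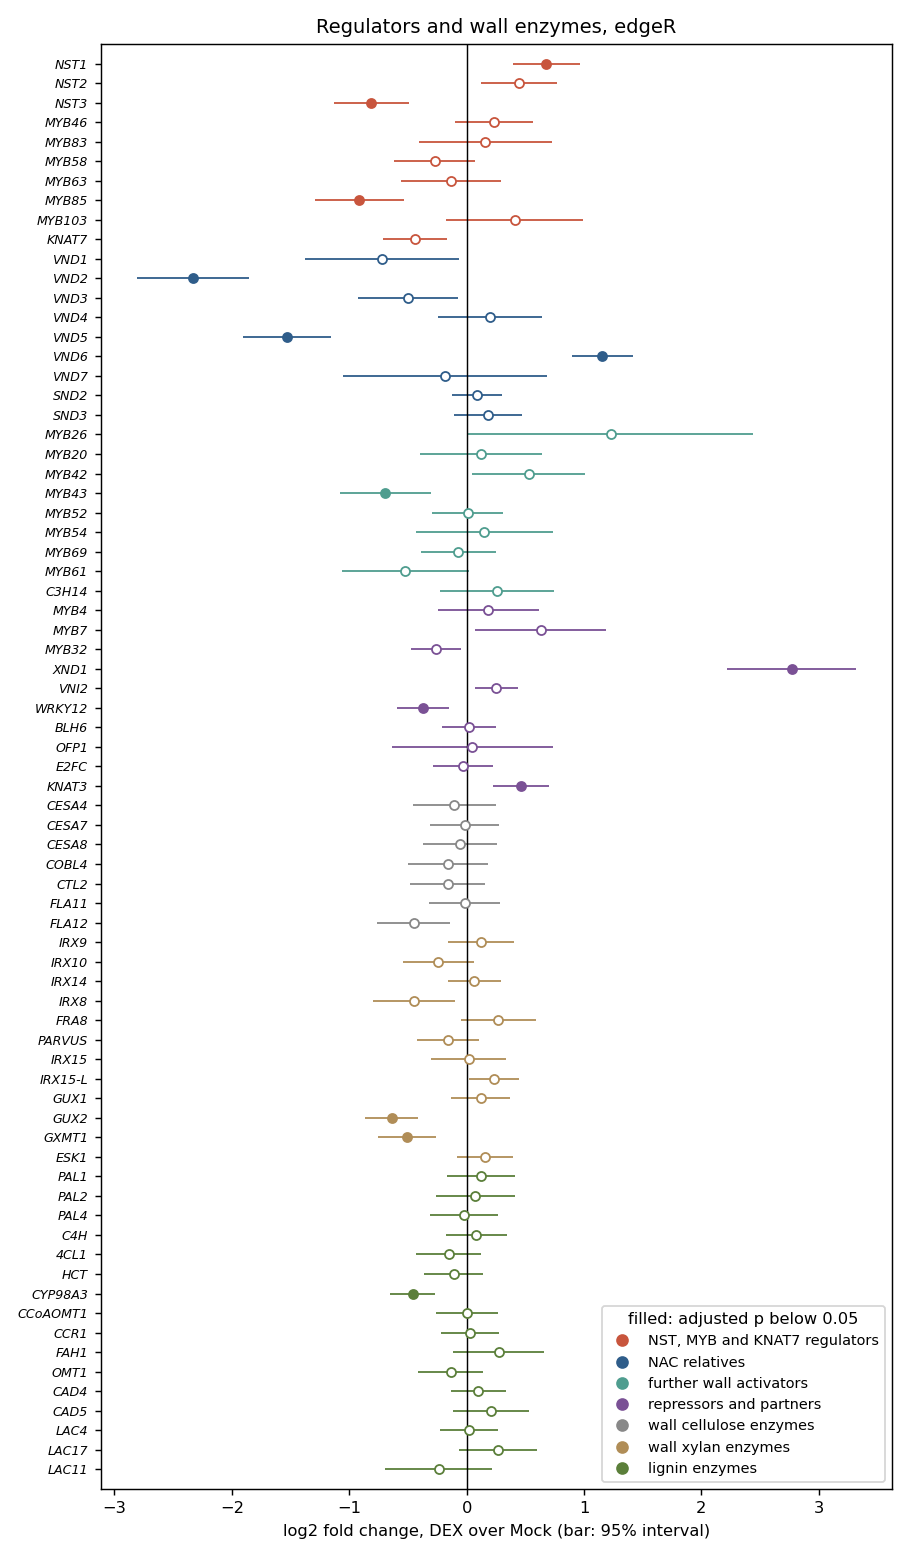
Log2 fold change of DEX over Mock (horizontal axis) with 95% interval for the 10 regulators (top), other wall regulators and wall enzyme genes, filled where the edgeR adjusted p was below 0.05. The filled points are 3 of the 10 regulators, 7 other regulators on either side of 0, and 3 enzyme genes below 0.

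Other regulators of the same network changed in both directions. Of 28 tested among 29 listed, 3 rose and 4 fell (25.0%, against 11.9% of all genes), at a median log2 fold change of 0.07, with *OFP4* too low for the test. Without Mock 1 or without Mock 2, 4 were called, while calls over all genes went from 2327 to 1791 and 1305. Of 9 NAC relatives (33.3% called, against 11.9% of all genes), the vessel switches *VND2* and *VND5* fell (-2.33 ± 0.20, edgeR adjusted p = 0.000476, and -1.53 ± 0.16, edgeR adjusted p = 0.00114) and *VND6* rose (1.15 ± 0.11, edgeR adjusted p = 0.000748). Each of these calls held in all 16 alternatives. Their levels were low. *VND2* averaged 2.10 CPM in Mock and 0.41 CPM in DEX, with 43 reads over the DEX group. *VND5* averaged 9.27 and 3.20 CPM, and *VND6* 7.22 and 16.1 CPM. Of 9 further activators only *MYB43*, a relative of *MYB85* in the lignin pathway, was called (11.1%, against 11.9% of all genes). Its mean fell from 40.7 ± 3.26 to 25.2 ± 5.60 CPM (-0.69 ± 0.17, edgeR adjusted p = 0.0374), a call lost without Mock 1, Mock 2, Mock 3 or DEX 2 (adjusted p 0.062 to 0.136).

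Among repressors and partners, 2 of 10 tested rose and 1 fell, beside 6.38% and 5.5% of all genes. The repressor of xylem differentiation *XND1* was read at 18.9, 14 and 24 CPM in Mock and at 142, 98.6 and 148 CPM in DEX. All DEX libraries were far above all Mock libraries, with a change of 2.77 ± 0.24 on the log2 scale (edgeR adjusted p = 0.000412) and a call in all 16 alternatives. *KNAT3*, the class II relative of *KNAT7*, rose from 30.8 ± 1.76 to 42.4 ± 4.67 CPM (0.46 ± 0.10, edgeR adjusted p = 0.027), the opposite sign to *KNAT7*. The call was lost without Mock 1, Mock 2, DEX 1 or DEX 3 (adjusted p 0.0547 to 0.124), and the difference between both genes was not tested. *WRKY12*, a repressor of wall formation in the pith, fell from 69.8 ± 5.06 to 53.8 ± 4.61 CPM (-0.38 ± 0.09, edgeR adjusted p = 0.0439), a call lost when any single library was left out (adjusted p 0.052 to 0.18).

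The wall enzyme genes stand downstream of these factors. Of 35 genes, 0 rose and 3 fell (8.57%, against 11.9% of all genes called and 5.5% that fell), at a median log2 fold change of -0.02 and a range of -0.64 to 0.27. Their summed level was 21992 to 23023 CPM in Mock and 20543 to 23533 CPM in DEX, so that the groups overlapped. The genes that fell were *GUX2* (-0.64 ± 0.10, edgeR adjusted p = 0.00498), which adds glucuronic acid to xylan, *GXMT1* (-0.51 ± 0.11, edgeR adjusted p = 0.0206), which methylates it, and *CYP98A3* (-0.46 ± 0.08, edgeR adjusted p = 0.011), a hydroxylase of lignin monomer synthesis. *GXMT1* was lost without Mock 1, Mock 2, Mock 3 or DEX 1 (adjusted p 0.0569 to 0.08) and *CYP98A3* without Mock 2 (0.0675), so that 1 enzyme gene was called without Mock 2. Of 7 genes of cellulose synthesis and assembly none was called, against 11.9% of all genes. The most abundant of them, *CTL2*, averaged 2089 ± 221 CPM across Mock and 1866 ± 208 CPM across DEX (-0.16 ± 0.14, edgeR adjusted p = 0.571).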

How the data were processed

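RNA was sequenced from second internodes, 3 libraries of Mock and 3 of DEX. Single-end reads had been mapped by the authors on TAIR10 using CLC Genomics Workbench, and the deposited tables give counts per gene (total, unique, exon, junction and intron reads) and RPKM values, which the authors computed from exon reads, exon length and total gene reads. The protocol marks strand; the sources used here do not say whether counting used it. Entries without a gene name held 0.093% to 0.135% of the reads and were left out.

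Total gene reads were tested with the two-sided quasi-likelihood test of edgeR 4.0.16 (R 4.3.3), with filterByExpr (19598 of 33316 genes kept), TMM factors and Benjamini-Hochberg adjustment over all kept genes, and calls at an adjusted p below 0.05. The script was run on simulated data as a check of the code only, which does not bear on the calls reported here. The standard error is the log2 fold change divided by the square root of F. Replicates are pools of plants by the paper's general methods, and p-values measure the spread between these libraries. The 16 alternatives were RLE or upper-quartile factors, library totals, no filter, at least 1 CPM in 3 libraries, DESeq2 1.42.0, limma-voom (limma 3.58.1), unique reads, exon reads, a replicate block and each library left out.

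The tables hold no coordinates. Positions and sequences come from RefSeq TAIR10.1 by locus code, and its annotated starts may differ from those of the gene models counted. The regulators and the gene lists were chosen with earlier results of these data known. Genes named are the 10 regulators and, of each other list, called genes (up to 4 in each direction) or else the most abundant, and marker genes.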

Additional observations from a re-analysis of the deposited data

How the results depend on the processing

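Over 16 alternatives for each of the 10 regulators, 146 of 160 fold changes kept their direction and their side of the threshold. In the other 14, 1 call was lost (*MYB85* without Mock 2), 10 were gained and 3 uncalled values changed sign. With 1 library left out, *MYB83* ranged from -0.062 to 0.38 and *MYB63* from -0.23 to 0.023. The sign changes were *MYB83* at -0.062 without DEX 2, and *MYB63* at 0.023 without Mock 3 and at 0.023 without DEX 1. Of 48 alternatives for *NST1*, *NST3* and *MYB85*, 47 kept the call. With DESeq2, 5 regulators and 5 wall enzyme genes were called in place of 3 and 3, while calls over all genes rose from 11.9% to 15.2%. With 1 library left out, the number called ran from 1305 to 2198 over all genes (2327 with all libraries, lowest without Mock 2), from 2 to 4 over the 10 regulators, from 4 to 6 over the other regulators and from 1 to 4 over the wall enzymes. Scaling moved the median of all genes from -0.01 to at most -0.08, with library totals. The balance of rises and falls over all genes (1250 and 1077) turned to 1110 and 1201 with upper-quartile factors and to 1016 and 1278 with library totals, and with both the regulators gave 1 rise and 3 falls.

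The replicate numbers are shared by both groups. The deviations of same-numbered libraries from their group means correlated at 0.52, 0.02 and 0.51 for numbers 1, 2 and 3. Across numbers, Mock 1 with DEX 3 gave -0.54 and Mock 3 with DEX 1 gave -0.47. Mock 2 correlated at -0.08, 0.02 and 0.05 with DEX 1, DEX 2 and DEX 3. The main fit did not pair the libraries, and whether the numbers mark pairs was not settled. With the replicate number as a block, 3980 genes (20.3%), 6 of the 10 regulators (*NST2*, *MYB103* and *KNAT7* in addition), 12 other regulators and 5 wall enzyme genes were called.

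With 3 libraries a group, the spread between libraries limits these comparisons. The floor of 3 reads corresponds to between 0.0793 and 0.098 CPM per library, below the level of each regulator, and covers counting error only.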
